A study of Homo sapiens with 4 samples.

Results

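The regions described here are the anti-HA peaks of the second induced library of a SNAIL1 chromatin immunoprecipitation (ChIP-seq) study that met no peak of the first induced library. They were chosen by position: a peak of the second list counted as unmatched when no peak of the first list overlapped it by 1 bp or more, on chromosomes 1 to 22. This left 677 unmatched peaks among 1336, or 50.7% of the list (95% interval 48.0 to 53.4, exact Clopper-Pearson), against 659 matched peaks. The 4 peak lists of the series held 2177 lines in all. The cells were LS174T, an established human colorectal adenocarcinoma line, carrying HA-tagged murine SNAIL1 under doxycycline control. Induced cells had received 0.1 mg/ml doxycycline for 6 h and uninduced cells of the same engineered line had not, with 2 libraries each, called induced 1, induced 2, uninduced 1 and uninduced 2. The clonality of the engineered line and the origin of the replicates as cultures were not given in the sources used here.

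SNAIL1 is a zinc-finger transcription factor that binds E-box motifs and recruits corepressors to epithelial genes such as the E-cadherin gene. It is known for driving epithelial-mesenchymal transition (EMT), in which cells lose their junctions and become motile, a step linked to invasion in colorectal cancer. ChIP-seq of a tagged factor reports where reads pile up over background, and a peak is listed only if it passes the caller's threshold. A region missing from a list is therefore not shown to be unbound. The genes and bases under the peaks were not analysed here. All positions are hg19, counted from 1.

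The unmatched peaks had fewer reads at the summit than the matched ones. Reads at the summit, recovered from the listed values, ran from 17 to 462 with a median of 30 (95% interval of the median 30 to 31) in unmatched peaks, and from 21 to 155 with a median of 45 (43 to 46) in matched peaks. The 2 ranges overlapped widely, but the upper quartile of the unmatched peaks, 35 reads, equalled the lower quartile of the matched ones. Of the unmatched peaks, 406 had 25 to 34 reads and 94 (13.9%) had 24 or fewer. Only 80 (11.8%) reached 40 reads, against 417 (63.3%) of the matched peaks, and 13 reached 50 reads, against 262. A count of at least 60 reads was found at 6 unmatched and 167 matched peaks.

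The more reads a peak of induced 2 had, up to about 60, the less often it was unmatched. All 8 peaks with 17 to 19 reads were unmatched, as were 86 of 93 (92.5%, 85.1 to 96.9) with 20 to 24. The share was 80.4% (75.2 to 85.0) at 25 to 29 reads, 50.5% (43.2 to 57.8) at 35 to 39 and 30.2% (24.2 to 36.7) at 40 to 49. It was 6.86% (2.80 to 13.6) at 50 to 59 reads. With 100 reads or more it was 9.09% (1.92 to 24.3), from the 3 unmatched peaks on chromosomes 1, 6 and 21 that are described further on. Since sharing depends on how strong a peak is, these values describe the selection and were not tested.

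**Figure D1:**
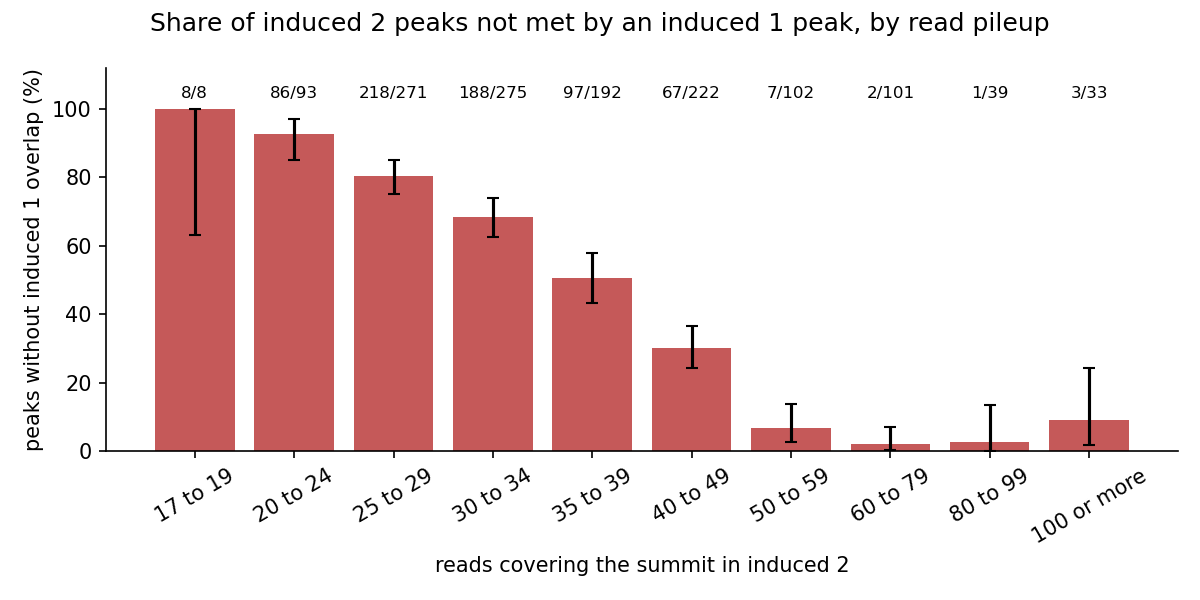
Share of induced 2 peaks on chromosomes 1 to 22 without an overlapping induced 1 peak (vertical axis, %) by the number of reads covering the summit (horizontal axis), with exact 95% intervals and, above each bar, unmatched peaks over all peaks. The share went from 92.5% at 20 to 24 reads to 6.86% at 50 to 59.

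Fold enrichment, the authors' own value for each peak over its local background, was lower in the unmatched peaks as well. Their folds ran from 1.26 to 29.3 with a median of 4.38 (4.36 to 4.50), and those of the matched peaks from 2.69 to 25.3 with a median of 6.00 (5.78 to 6.25). A fold of at least 5 was listed for 190 unmatched peaks (28.1%), against 454 matched peaks (68.9%) and 48.2% of the list as a whole. At a fold of at least 8 the counts were 5 and 160. The relation was not even across the list. With all peaks ordered by fold and divided into 10 groups of about equal size, the 5 lower groups all held between 66.9% and 74.4% unmatched peaks and the next one 62.4%. From a fold of 5.32 upward the shares were 43.3%, 32.3%, 13.4% and, in the highest group, 2.99% (0.819 to 7.47).

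Unmatched peaks were also narrower. Their median width was 303 bp (296 to 309), with 10th and 90th percentiles of 254 and 415.8 bp, against 391 bp (380 to 399) for the matched peaks. The narrowest peak of either induced list was 250 bp wide, and 116 unmatched peaks (17.1%) were within 10 bp of that floor, against 25 matched peaks (3.79%). At the other end, 22 unmatched peaks (3.25%) were at least 500 bp wide, against 123 (18.7%). A wide peak has more room to meet another, so width is not independent of how the peaks were chosen.

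**Figure D2:**
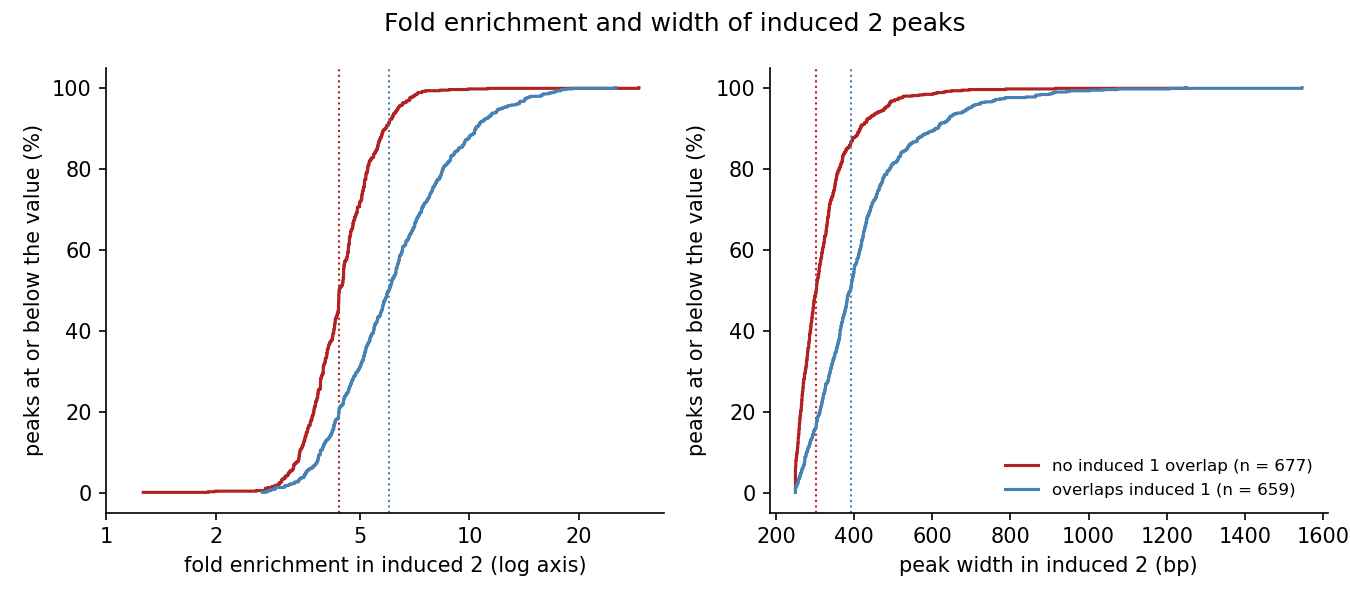
Cumulative share of peaks (vertical axes, %) by fold enrichment (left, log axis) and by width in bp (right) in induced 2, with dotted lines at the medians. The unmatched peaks lie to the left in both panels, with medians of 4.38 and 303 bp against 6.00 and 391 bp.

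Peaks with similar numbers of reads were compared between the 2 classes in background, width and fold. At 25 to 29 reads, the 218 unmatched peaks had a median background of 5.65 reads (5.42 to 5.74) and the 53 matched peaks 5.56 (5.22 to 6.08). Their median widths were 285 bp (279 to 292) and 296 bp (275 to 326). At 30 to 34 reads, the background was 6.33 reads in both classes. The widths there were 299 bp (290 to 306) in unmatched and 316 bp (302 to 351) in matched peaks. At 35 to 39 reads, the background was 6.33 reads in both classes and the widths were 334 bp (312 to 353) and 331 bp (319 to 346). At 40 to 49 reads, the 67 unmatched peaks were somewhat narrower, at 346 bp (331 to 355) against 369 bp (362 to 392) for 155 matched peaks. Their median background was 7.01 reads (6.33 to 7.68), against 6.33 (6.33 to 6.78), so the intervals of the background overlapped and those of the width did not. Reads were not equalised within a group, and their part in the width difference was not tested. Over the whole list, the local background was 5.88 reads (5.70 to 6.13) in unmatched and 6.33 reads (6.33 to 6.78) in matched peaks. Median folds at 25 to 29 reads were 4.20 in unmatched and 4.36 in matched peaks, and at 30 to 34 reads 4.63 and 4.37. At 35 to 39 reads they were 5.00 and 5.05, and at 40 to 49 reads 5.655 and 6.11. The intervals of the 2 classes overlapped in each of these groups, which does not show the folds to be equal.

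The few strong unmatched peaks stood apart from the rest. The highest fold of the whole induced 2 list belonged to an unmatched peak on chromosome 6 from 135502324 to 135503572, with 29.3-fold enrichment. It was also the widest of the unmatched peaks, at 1249 bp, and had 174 reads at its summit (149 to 202, exact Poisson interval for counting error only) over a background of 4.97. Induced 1 listed nothing at this position, and its nearest peak began 84668 bp away, at 135588241, with 7.55-fold enrichment and 62 reads. Both uninduced libraries listed it: uninduced 1 with 102 reads (83 to 124) and 14.4-fold over 983 bp, and uninduced 2 with 47 reads (35 to 63) and 6.47-fold over 830 bp. The summit of uninduced 1 lay 26 bp from that of induced 2, and the summit of uninduced 2 lay 254 bp from it. So 3 of the 4 libraries carried the site, including both without doxycycline.

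The next highest folds were far lower. The unmatched peak on chromosome 2 from 122777062 to 122777431 had 11.2-fold enrichment and 62 reads (48 to 79), and the nearest induced 1 peak was 2852048 bp away. The unmatched peak on chromosome 3 from 156838324 to 156838740 had 9.91-fold enrichment and 50 reads (37 to 66), and it was still more isolated, 12701631 bp from any induced 1 peak. Neither was listed in an uninduced library, so each rests on induced 2 alone. Chromosome 1 followed with a peak of 8.80-fold and 48 reads, from 201095849 to 201096218. On chromosome 9, the peak from 116225729 to 116226083 had 56 reads and 8.29-fold enrichment. With the chromosome 6 site, these are the 5 unmatched peaks with a fold of at least 8.

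The remaining 7 of the 12 highest folds lay between 7.13 and 7.57. On chromosome 22, the peak at 42709889 to 42710224 had 63 reads (48 to 81) and 7.57-fold enrichment. The peak on chromosome 2 at 74210801 to 74211325 had 45 reads and another induced 2 peak only 467 bp away, although the nearest induced 1 peak was 1065954 bp distant. Chromosome 11 held 2, at 18477273 to 18477652 (7.38-fold) and at 61813441 to 61813873 (7.18-fold), each with 37 reads over low backgrounds of 4.15 and 4.29. On chromosome 19, the peak at 934816 to 935229 had 52 reads and lay 14388 bp from a strong induced 1 peak with 12.2-fold enrichment. The peak on chromosome 20 from 48599068 to 48599548 had 39 reads and 7.19-fold enrichment. The last of the 12, with 48 reads and 7.13-fold enrichment, was on chromosome 17 from 73900964 to 73901318.

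Reads and fold did not rank the unmatched peaks alike, and the largest departures were 3 peaks on a very high background. The peak with most reads, 462 (421 to 506), was on chromosome 21 from 9826067 to 9826356, but its background was 365 reads and its fold, 1.26, was the lowest of the list. On chromosome 1, from 236260323 to 236260817, 144 reads stood over a background of 75.04 (1.91-fold), and on chromosome 4, from 190989098 to 190989414, 82 reads stood over 40.7 (1.99-fold). No other peak of induced 2 on chromosomes 1 to 22 had a background above 40 reads. The chromosome 1 region lies 71448 bp from a site that was strong in induced 1, with 15.1-fold enrichment and 147 reads. That site was also listed in uninduced 1 (54 reads, 8.77-fold) and uninduced 2 (69 reads, 8.37-fold). The next lowest folds had backgrounds far below those of the 3 peaks, but above the 90th percentile of unmatched peaks, 8.14 reads. They were 2.59 on chromosome 1 at 16469768 to 16470133, with 25 reads over 9.04, and 2.74 on the same chromosome at 162035776 to 162036089, with 29 reads over 9.95. Peaks on chromosomes 2, 20 and 21 also had a fold of 2.74, with the same reads and background.

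**Figure D3:**
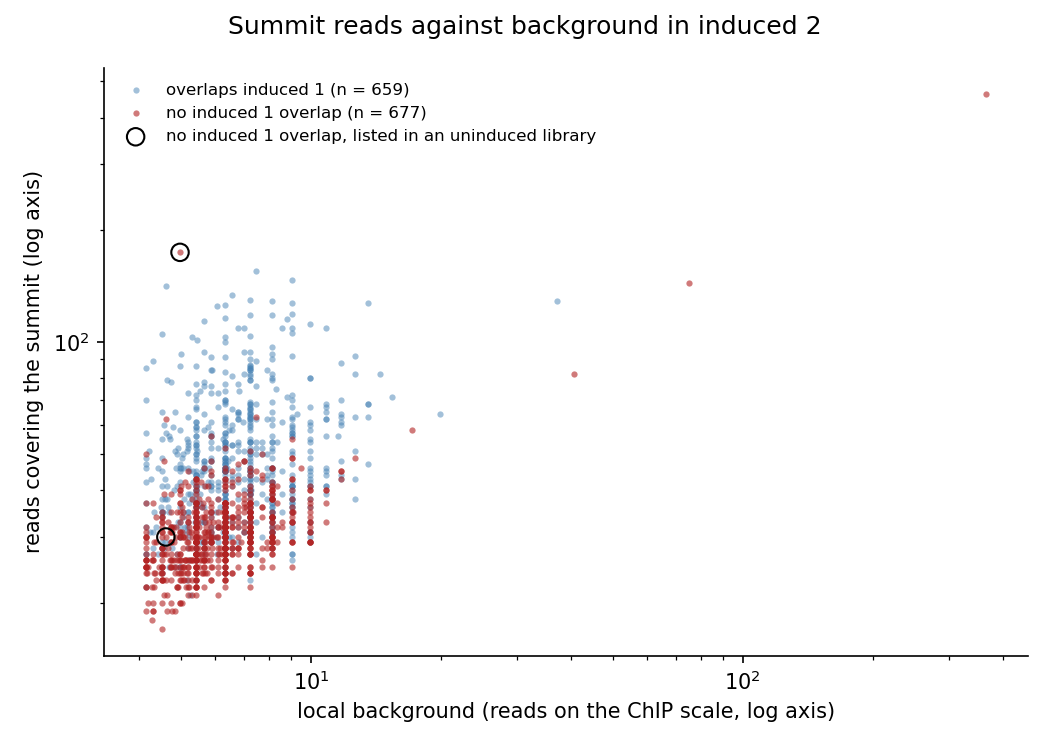
Reads covering the summit (vertical axis, log) against the local background in reads (horizontal axis, log) for each induced 2 peak on chromosomes 1 to 22. Most unmatched peaks lie at 25 to 34 reads, 3 lie at backgrounds above 40 reads, and the 2 ringed ones, with 174 and 30 reads, were also listed in uninduced cells.

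After the chromosome 6 site, the next widest unmatched peaks had folds above the median of 4.38 but well below that site. The peak on chromosome 1 at 18002067 to 18002981 was 915 bp wide with 33 reads, and the peak on chromosome 9 at 139694224 to 139695010 was 787 bp wide, also with 33. Chromosome 17 held a peak of 695 bp at 38225980 to 38226674 (41 reads), and chromosome 8 a peak of 676 bp at 125089199 to 125089874 (39 reads, 6.96-fold). Thus 4 of the 5 widest had folds between 4.90 and 6.96.

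The uninduced lists held only 5 and 11 peaks, so few induced 2 peaks of either class could meet one. Besides the chromosome 6 site, 1 other unmatched peak did, on chromosome 3 from 182833943 to 182834246. In all, 2 of 677 (0.295%, 0.0358 to 1.06) met an uninduced peak. The figure was 5 of 659 (0.759%, 0.247 to 1.76) for matched peaks and 0.524% for the list as a whole. These intervals overlap, and the numbers are too small to separate the classes. The chromosome 3 peak had 30 reads (20 to 43) and 5.52-fold enrichment in induced 2, and 35 reads (24 to 49) and 5.11-fold in uninduced 2, with summits 18 bp apart. Neither induced 1 nor uninduced 1 listed it, and the nearest induced 1 peak was 1442785 bp away.

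Few unmatched peaks were near misses of an induced 1 peak. The smallest gap was 74 bp and the smallest overlap among matched peaks was 171 bp, so no peak lay at the edge of the rule. The matched peaks just inside it were on chromosome 5 at 302299 to 303059 (171 bp of overlap), and on chromosome 2 at 65258375 to 65258700 (174 bp) and at 232478449 to 232478722 (181 bp). Just outside were the unmatched peaks on chromosome 12 at 70132326 to 70132630 (gap 74 bp, 35 reads) and chromosome 5 at 68788071 to 68788348 (116 bp, 24 reads). They were followed by those on chromosome 20 at 60942899 to 60943254 (152 bp, 35 reads), chromosome 16 at 68269956 to 68270228 (160 bp, 37 reads) and chromosome 19 at 50708505 to 50708838 (188 bp, 36 reads). Their summits were 415 to 566 bp from the induced 1 summit, whereas summits of matched pairs in this group were 31 to 342 bp apart.

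Some unmatched peaks this close to an induced 1 peak lay beside a site that both lists held. Within 1 kb of an induced 1 peak lay 19 unmatched peaks (2.81%), and for 12 of them another induced 2 peak overlapped that neighbour. The neighbour had the higher fold in 13 of the 19, with a median of 5.24 in induced 1 against 4.50 for the unmatched peaks in induced 2. Within 10 kb there were 48 (7.09%), with the neighbour met by another induced 2 peak at 32 and higher in fold at 38. Folds of the 2 lists come from separate calls, so this order is only descriptive. Proximity was about as common among the 659 matched peaks. Of these, 17 (2.58%) lay within 1 kb of an induced 1 peak that they did not overlap, and 55 (8.35%) within 10 kb. Over the whole induced 1 list, only 160 of 820 peaks (19.5%) overlapped no induced 2 peak. A neighbour held by both lists is therefore not particular to the unmatched peaks.

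Most unmatched peaks were far from any induced 1 peak, at gaps in the range of those between matched peaks and their next one. The gap had a median of 446347 bp (332244 to 542289), with quartiles of 98246 and 1471355 bp. For matched peaks, the gap to the nearest induced 1 peak that they did not overlap had a median of 361138 bp (275714 to 459167). Within 100 kb these counts were 171 unmatched (25.3%, 22.03 to 28.7) and 191 matched peaks (28.98%, 25.5 to 32.6), and within 1 Mb the shares were 67.1% and 68.0%. The largest gap of an unmatched peak was 18052042 bp. In 1 Mb windows, 328 unmatched peaks (48.4%) fell where induced 1 had no summit at all. A matched peak has an induced 1 peak at its own position, so this share depends on the rule. It has no like value for matched peaks.

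**Figure D4:**
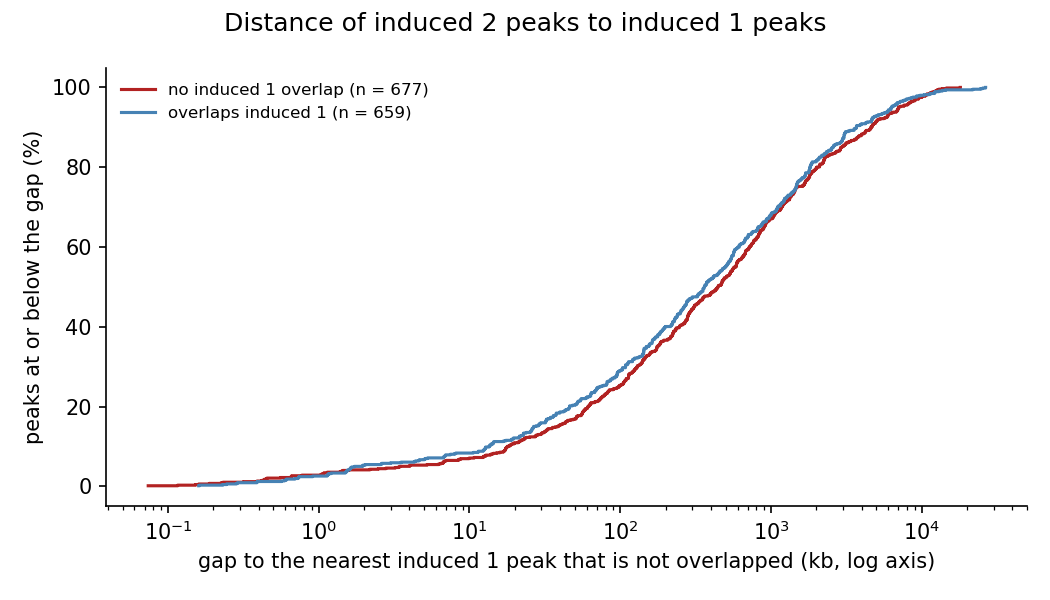
Cumulative share of induced 2 peaks (vertical axis, %) by the gap in kb (horizontal axis, log) to the nearest induced 1 peak that they did not overlap. The curves of the unmatched and matched peaks run close together, with medians of 446347 and 361138 bp.

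Some unmatched peaks lay close to other induced 2 peaks, as some matched ones did. Runs of induced 2 summits at most 20 kb apart held 119 unmatched peaks (17.6%, 14.8 to 20.7) and 107 matched ones (16.2%, 13.5 to 19.3). Of the 119, 62 shared a run with a matched peak, in 53 runs, and 57 lay in 28 runs of unmatched peaks alone. The regions named in the rest of this paragraph were picked after their values had been seen. Only 1 run of unmatched peaks alone held 3, on chromosome 1 from 16062496 to 16083298, with folds of 3.56 to 6.25 and 30 to 39 reads. Mixed runs with 3 unmatched peaks lay on chromosome 12 from 53289163 to 53320311 and chromosome 16 from 1116803 to 1150572. The 1 Mb window with most unmatched peaks, 8, was on chromosome 8 from 145000001 to 146000000, where induced 1 had only 2 summits. Windows with 4 unmatched peaks and no induced 1 summit began at 67000001 on chromosome 11 and at 41000001 on chromosome 17.

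By chromosome, the unmatched peaks followed the matched ones with few departures. Every chromosome from 1 to 22 held some, from 6 on chromosome 18 to 72 on chromosome 1. Their share of the induced 2 peaks ran from 31.6% (12.6 to 56.6) on chromosome 18 to 66.7% (52.1 to 79.2) on chromosome 3, where 34 of 51 were unmatched. Chromosome 3 was the only one of the 22 whose interval excluded the overall 50.7%, and the intervals were not adjusted for their number. Chromosomes 13 (17 of 26, 65.4%) and 14 (28 of 44, 63.6%) had the next highest shares. Chromosomes 5 (22 of 55) and 19 (34 of 84, 40.5%) followed chromosome 18 at the low end.

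On the gene-rich chromosomes 16, 17 and 19 the unmatched peaks were somewhat fewer, with 124 of 677 (18.3%, 15.5 to 21.4) against 155 of 659 matched peaks (23.5%, 20.3 to 26.9). The intervals overlap. The first 5 Mb of the chromosomes, leaving out 13, 14, 15, 21 and 22, held 84 of 588 unmatched peaks (14.3%, 11.6 to 17.4) and 106 of 596 matched ones (17.8%, 14.8 to 21.1), and again the intervals overlap. Strength differed little by chromosome, the median fold of the unmatched peaks lying between 4.03 on chromosome 4 and 4.86 on chromosome 3. On chromosome 3, matched peaks had 1.15 times as many reads in induced 1 as in induced 2, the lowest ratio of any chromosome, and the highest was 1.305 on chromosome 10. Over the 22 chromosomes, this ratio and the unmatched share had a Pearson r of -0.14, given as a description only, since both come from the same libraries. Its part in the share was not tested.

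**Figure D5:**
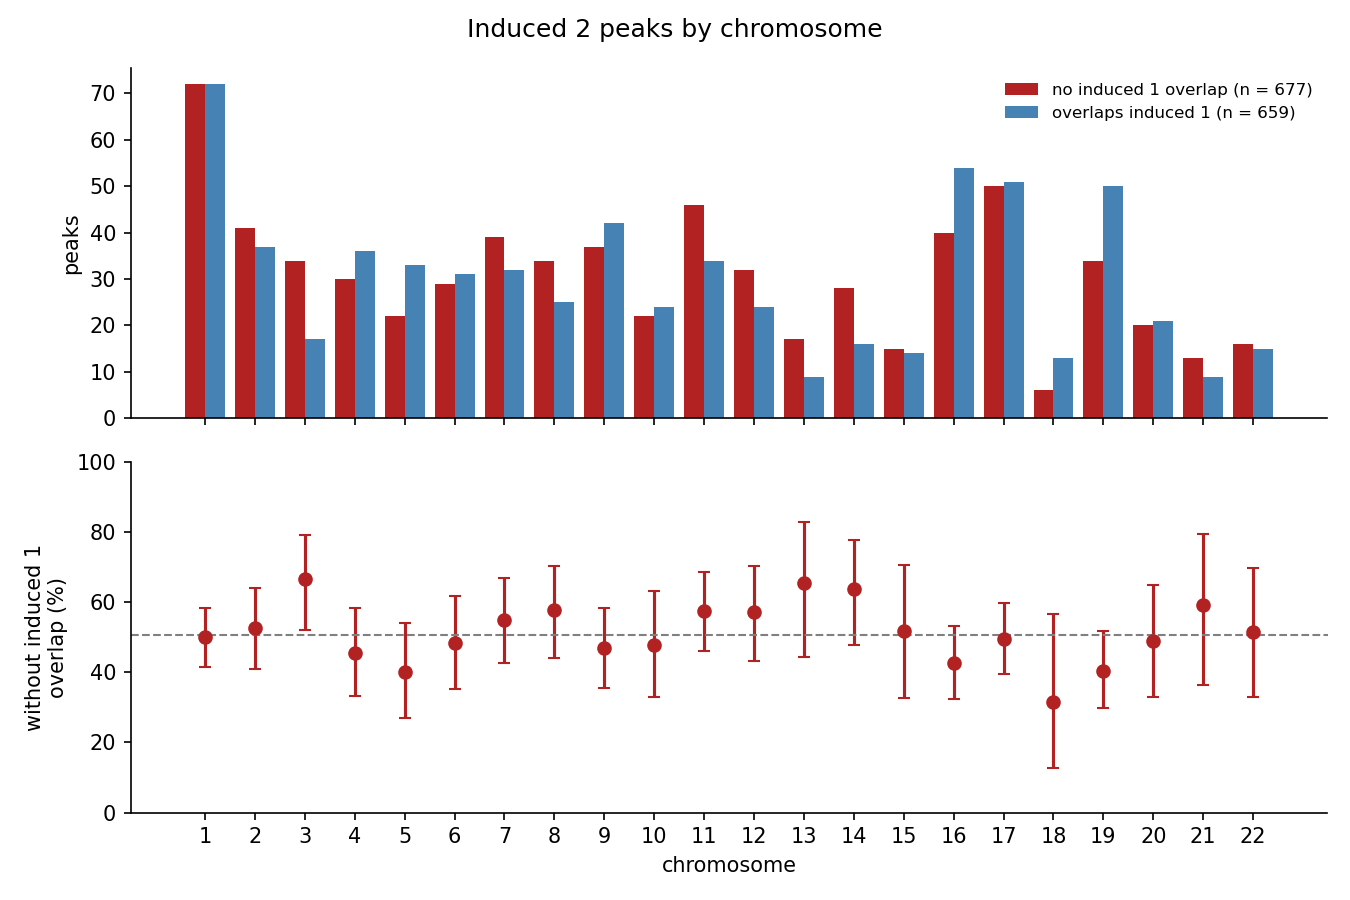
Upper panel, number of unmatched and matched induced 2 peaks on each chromosome. Lower panel, unmatched peaks as a share of all induced 2 peaks (%) with exact 95% intervals, and a dashed line at the overall share of 50.7%, which only the interval of chromosome 3 (52.1 to 79.2) excludes.

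On the chromosomes not yet named for a strong peak, the highest fold of an unmatched peak was between 5.70 and 7.07. It was 7.07 (46 reads) on chromosome 4, at 15006507 to 15006865, and 6.96 at the wide chromosome 8 peak given above. Peaks of 40 reads and 6.86-fold enrichment led on chromosome 7, at 72971411 to 72971757, and on chromosome 16, at 10688426 to 10688753. Chromosome 12 had its strongest at 89747578 to 89748092 (6.85-fold, 43 reads), with the nearest induced 1 peak 10845640 bp away. On chromosome 14 the strongest, at 32728961 to 32729225, had 35 reads and 6.52-fold enrichment, and on chromosome 13 the one at 109917112 to 109917470 had 34 reads. On chromosome 21 the peak at 45663849 to 45664186 reached 6.09-fold with 45 reads. The peaks on chromosomes 18 (31382874 to 31383237), 5 (138940808 to 138941116) and 15 (41074851 to 41075203) had folds of 6.02, 6.01 and 6.00. The lowest of these maxima, 5.70, was on chromosome 10 at 129781977 to 129782302, with 32 reads.

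The unmatched peaks were then set on the scale of induced 1, to see where they would lie against the weakest peaks listed there. Over 658 matched pairs, induced 1 had 1.23 times the reads of induced 2 (10th to 90th percentile of single pairs 0.976 to 1.58) and a median of 1.29 times the background. With these ratios, unmatched peaks would have a median of 36.9 reads in induced 1 and a median −log10 p of 9.86. All pairs had passed the threshold of induced 1. Their read ratio may therefore be too high for unmatched peaks, and the counts that follow too small. Of the 677, 15 (2.22%, 1.25 to 3.63) would fall below 5.52, the lowest −log10 p listed in induced 1, against 5 of 659 matched peaks (0.759%, 0.247 to 1.76). In reads, 38 (5.61%) would fall below 28, the lowest pileup listed in induced 1, against 2 matched peaks (0.303%). With the read ratio at its 10th percentile, 204 unmatched peaks would fall below that −log10 p. These are calculated and not measured values: in the matched pairs themselves, the listed −log10 p differed from the scaled one by a median of 0.338 (quartiles -5.12 and 5.54), and whether ratios of matched pairs hold at unmatched peaks was not tested. For the chromosome 6 site the scaled value was 214 reads, above the highest pileup in induced 1 (196), and for the chromosome 2 peak at 122777062 it was 76.2 reads.

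Induced 1 had its own, smaller set of unmatched peaks. They numbered 160 of 820 (19.5%, 16.9 to 22.4). Their median fold was 4.53 (4.32 to 4.68), against 4.38 (4.36 to 4.50) in the unmatched peaks of induced 2. Their median width was 281 bp (275 to 289), against 303 bp (296 to 309). Median reads at the summit were 40 (39 to 42), against 30 (30 to 31). A fold of at least 5 was listed for 28.8% of them (21.9 to 36.4), close to the 28.1% (24.7 to 31.6) of the unmatched peaks of induced 2. Matched peaks of induced 1 were not summarised, so these values do not show how the 160 compared with the rest of that list. The highest fold of the 160 was 7.42. In induced 2 it was 29.3, at the chromosome 6 site, and the next was 11.2. Folds of the 2 lists come from separate calls, and these maxima come from sets of 160 and 677 peaks. The 160 lay nearer to the other list, at a median gap of 152651 bp (108415 to 249432), and the list they were measured against was the longer. All values come from 1 library per class, so the spread between replicates is unknown and no test was made.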

How the data were processed

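The authors deposited 1 MACS2 narrowPeak list per library, and per the submitters' processing notes used Trimmomatic 0.36, BWA 0.7.15 and MACS2 2.1.1.20160309 with hg19. Peak thresholds, duplicate handling and the choice of controls were not given in the sources used here. Per peak, the authors' deposited values are a fold (the ratio of summit pileup to background), a score (not used), and p and q as −log10. The lists held 823 peaks in induced 1, 1338 in induced 2, 5 in uninduced 1 and 11 in uninduced 2. Chromosome X, with 2 peaks in induced 2, was left out.

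Matching used an overlap of at least 1 bp (Python 3.11.15, the count checked with bedtools 2.31.1). Library totals are unknown, so no depth ratio of the libraries is given. Summit reads depend on depth and enrichment together. They were solved from fold, taken as pileup over background each raised by 1, and the Poisson −log10 p, with the pileups of induced 1 scaled down by 1.40. That factor was fitted on peaks of induced 1. Every peak of the 4 lists gave a whole number of reads, with a tolerance of 0.0005 on the −log10 p. On simulated peaks this recovered 100% of 300 pileups of the induced 2 type and of 299 of the induced 1 type. The simulated peaks were made with the same formulas and factor, so this checks the solving step and not the formulas. Backgrounds are on the scale of ChIP reads. Shares have exact Clopper-Pearson 95% intervals and medians have order-statistic intervals (scipy 1.17.1). All cover counting error within 1 library, and peaks are not replicates.

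The regions, the rule and the comparisons were chosen with earlier results of these data known. Named peaks are the 12 highest and 5 lowest in fold, the 5 widest, the 5 nearest to an induced 1 peak, the 5 with most reads, those in an uninduced list, the 3 smallest overlaps and the strongest of each chromosome. The planned motifs, gene annotation and gene lists were left out, because neither sequence nor annotation of hg19 was used.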

Additional observations from a re-analysis of the deposited data

How the results depend on the processing

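The alternative with a fold of at least 5 in induced 2 against all of induced 1, and those of the scaled −log10 p, were chosen after seeing the data, and the others were planned. The number of unmatched peaks, 677, lay between 596 and 685 under the 3 other definitions of a match and a −log10 q of at least 5 in both lists. It was 303 when both lists were held to a fold of at least 5, 311 with induced 2 shortened to the length of induced 1, and 190 with that fold in induced 2 only. These settings left 644, 820 and 644 induced 2 peaks, and the first also shortened the induced 1 list. The median fold of unmatched minus matched peaks, -1.63, stayed negative in all settings run and was -1.94 under the first of these 3 settings. The median gap of 446347 bp became 966537 bp, 590587 bp and 805389 bp under these 3 settings in turn, while the width difference and the share on chromosomes 16, 17 and 19 stayed within their intervals. Without uninduced 2, 1 unmatched peak met an uninduced peak, and without uninduced 1, 2 did. The number whose scaled −log10 p fell below the lowest of induced 1 rose from 15 to 80 with the read ratio at its 25th percentile. Leaving out an induced library gives no value, since the rule needs both. No paired analysis was possible because the rule itself sets induced 1 against induced 2 and no test was made. Below 17 reads in induced 2, and 28 in induced 1, no peak was listed.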
